A study of Mus musculus with 4 samples.

Results

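The first functional natural killer (NK) cluster, named Functional_NK_1 in the authors' annotation, was compared between orthotopic CT26 tumors that lacked Cyp51 and control tumors. Its members were all cells carrying that name, 1414 of the 17674 cells in the deposited table, of which 757 came from Cyp51-KO tumors and 657 from sg-Ctrl tumors. The cluster was the 4th largest of 20. The second functional NK cluster (292 cells) and the activated NK cluster (540 cells) served as references, and the 3 together are called NK cells below.

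CT26 is a mouse colorectal cancer cell line, grown here in the colon of immunocompetent male BALB/c mice that were 8 to 10 weeks old at injection. In Cyp51-KO tumors the injected CT26 cells carried a guide against Cyp51, a demethylase of the cholesterol synthesis pathway, and in sg-Ctrl tumors a control guide. Both were delivered by a lentivirus with a blue fluorescent protein (TagBFP) by which the transduced cells were sorted, and the mice themselves, NK cells included, carried no edit. Tumors were collected at day 26, 9 from the Cyp51-KO and 12 from the sg-Ctrl group. Sorted leukocytes (CD45+), T cells (CD45+ CD3+) and tumor cells were then remixed at 50%, 40% and 10%, so NK cells entered through the leukocyte part, and their weight against T cells or tumor cells was partly set by the mix. RNA was read by 5′ droplet sequencing, and each cell has its number of unique molecular identifiers (UMIs, distinct RNA molecules counted), the genes with at least 1 UMI, and the percentage of UMIs from mitochondrial genes.

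NK cells are innate lymphocytes that kill stressed, infected or transformed cells without prior priming. They read activating receptors such as NKp46 (encoded by Ncr1) against inhibitory receptors of the Ly49 family (Klra genes), and kill by releasing perforin and granzymes onto the target. They also secrete interferon gamma and the chemokines Ccl4, Ccl5 and Xcl1, which draw in other leukocytes. The authors' leading genes for the first functional cluster are of this kind. They hold Gzma and Gzmb (granzymes), Irf8 (a transcription factor used in NK cell maturation and in myeloid cells), Ncr1, Klra3 (a Ly49 receptor), Tyrobp (a signaling adaptor of activating receptors), Il2rb (a receptor chain for interleukins that sustain NK cells), Ccl4 and Ccl5. Gzma, Gzmb and Irf8 also lead the second functional cluster, beside Prf1 (perforin) and Gzmc, Gzmd and Gzme, further granzymes. Ncr1 and Tyrobp also lead the activated cluster, beside Xcl1. Expression of single genes per cell was not analysed here, so the label could not be checked against Gzma, Irf8, Ncr1 and Klra3, nor could these genes be compared between the groups.

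The labels list 2 samples per group, called libraries here, whose titles share their digits pairwise between the groups with no stated meaning. Whether these 2 are separate cell preparations is not stated, and each cell is tied only to its group. The sources used here do not say how tumors were divided over the libraries. Each group was therefore treated as 1 sample, cells were not taken as replicates, and no test was made. Each share is followed by its exact 95% Clopper-Pearson interval (binomial), and each median by the exact 95% interval that the ordered cells give. These cover counting error only, not the spread between tumors, sorts or libraries, so any difference below is one between 2 sets of cells. The median over all cells was 6508.5 UMIs in the Cyp51-KO and 7822.5 UMIs in the sg-Ctrl pool. These values also depend on the make-up of the pools. Cells annotated as malignant, with medians of 39624 and 45683 UMIs, were 2428 of 10484 Cyp51-KO and 729 of 7190 sg-Ctrl cells. No barcode occurred more than once within a group, and 98 occurred in both groups, among them those of 5 Cyp51-KO and 14 sg-Ctrl cells of the first functional cluster.

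The first functional cluster was the most numerous NK cluster in both groups, and it took a slightly smaller part of the NK cells in Cyp51-KO tumors. It made up 757 of 1254 NK cells there, or 60.4% (57.6 to 63.1%), and 657 of 992, or 66.2% (63.2 to 69.2%), in sg-Ctrl tumors. The log2 ratio of Cyp51-KO over sg-Ctrl was -0.13 (-0.26 to -0.0024), where the bounds set the lower end of one share against the upper end of the other. The intervals were barely apart, and they overlapped without the barcodes found in both groups (60.4%, 57.6 to 63.1%, against 65.9%, 62.9 to 68.9%). They also overlapped once the 5% of cells with the most UMIs were left out of each cluster and group (60.4%, 57.6 to 63.2%, against 66.3%, 63.2 to 69.3%). Every cluster lost the same part of its cells, so the shares could hardly move. This overlap came with the lower cell numbers (1190 and 941 NK cells) and does not test the shares. The intervals stayed apart under a stricter cell filter (60.2%, 57.4 to 62.96%, against 66.4%, 63.3 to 69.3%). They were farther apart among cells with at least 2000 UMIs (56.3%, 53.3 to 59.3%, against 65.6%, 62.5 to 68.6%, log2 ratio -0.22). That minimum left out 151 of 757 first functional NK cells in Cyp51-KO but 20 of 657 in sg-Ctrl tumors. The wider gap thus partly follows from the cutoff and does not show a larger difference.

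The remaining NK cells were split between the references. The second functional cluster held 14.7% (12.8 to 16.8%) of NK cells in Cyp51-KO against 10.9% (9.02 to 12.99%) in sg-Ctrl tumors, and the activated cluster 24.96% (22.6 to 27.5%) and 22.9% (20.3 to 25.6%). Both pairs of intervals overlapped. Set against the second functional cluster alone, the first made up 80.4% (77.8 to 82.9%) and 85.9% (83.2 to 88.3%) of their joint cells, with intervals apart. Set against the activated cluster alone, it made up 70.7% (67.9 to 73.5%) and 74.3% (71.3 to 77.2%), and the intervals overlapped.

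What else was counted decided how the cluster compared between the groups. Among NK, B and plasma cells, which share the leukocyte part of the sort, the log2 ratio was -0.17 (-0.32 to -0.024). Among immune cells other than T cells it was -0.34 (-0.53 to -0.16), from 22.1% and 28.0%. With T cells included, among all 13 lymphocyte clusters, it was 0.0064 (-0.19 to 0.21). Among all immune cells it was -0.10 (-0.31 to 0.10), from 9.58% and 10.3%, and among all cells -0.34 (-0.55 to -0.13). Across these 6 denominators the share was lower in Cyp51-KO tumors in 5, with intervals apart in 4. All 6 contain the same first functional cells and overlap one another, so they are not separate results. Those with T cells or malignant cells also depend on the sorted mix.

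**Figure D1:**
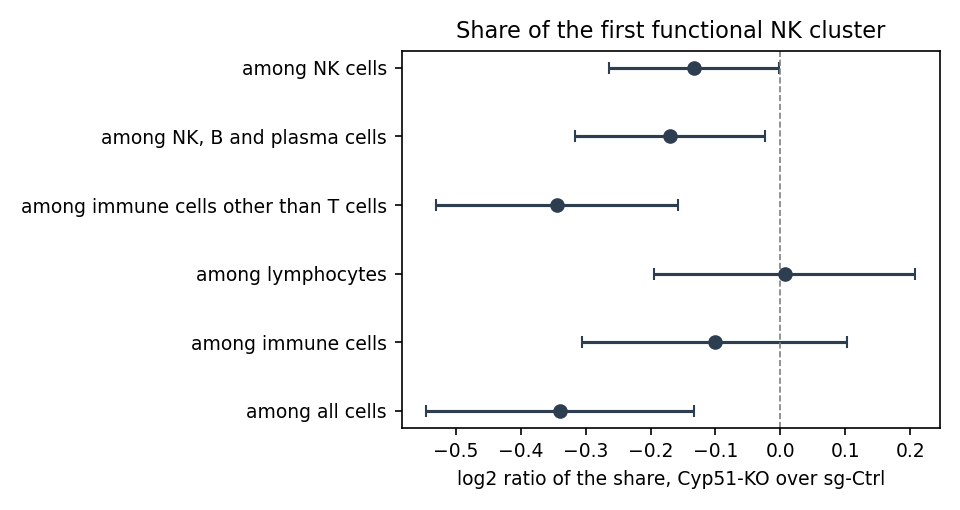
Log2 ratio of the share of the first functional NK cluster, Cyp51-KO over sg-Ctrl (x axis), among 6 sets of cells (y axis). Points are the ratios, bars run between the outer bounds from the exact 95% intervals of both shares, and the dashed line marks equal shares. The ratio ran from -0.34 among immune cells other than T cells to 0.0064 among lymphocytes.

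Set against single clusters, the first functional NK cells kept nearly the same ratio to several of them. They were 36.3% (34.3 to 38.4%) and 36.3% (34.1 to 38.6%) of the cells they formed with CD8 Temra cells, a T cell type with a strong cytotoxic program. With Treg cells, which restrain immune responses, these shares were 71.3% and 71.5%, with B cells 80.7% and 82.7%, and with neutrophils 57.9% and 59.5%, all with overlapping intervals. Against exhausted CD8 T cells the share was higher in Cyp51-KO tumors, at 43.5% (41.2 to 45.9%) and 34.5% (32.4 to 36.7%). Against effector CD8 T cells it was lower, at 64.5% (61.7 to 67.3%) and 75.5% (72.5 to 78.3%). The cluster had 1.15 Cyp51-KO cells per sg-Ctrl cell, beside 1.23 for neutrophils, 1.21 for macrophages, 2.06 for monocytes, 2.40 for mast cells and 2.21 for dendritic cells. This number was the 5th lowest of 20 clusters, which ran from 0.79 (exhausted CD8 T cells) to 3.33 (malignant cells). Ratios to T cells and tumor cells were partly set by the mix. Shares say only how cells divide between clusters, and fewer first functional NK cells in a tumor cannot be told apart from more of the cells counted with them.

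The cells differed more in how much RNA was read from each of them. A first functional NK cell of a Cyp51-KO tumor had a median of 3437 UMIs (3251 to 3731), and one of a sg-Ctrl tumor 6337 (5906 to 6968), a log2 ratio of -0.88 (-1.10 to -0.66). Values ran from 515 to 35633 UMIs in the Cyp51-KO and from 668 to 31758 in the sg-Ctrl pool, so the groups covered nearly the same range. Of the Cyp51-KO cells, 566 of 757 (74.8%) lay under the sg-Ctrl median, whereas 97 of 657 sg-Ctrl cells (14.8%) lay under the Cyp51-KO median. Among all pairs of a cell from each group, the Cyp51-KO cell had fewer UMIs in 72.1%.

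On the log2 scale the gap was wider at the lower percentiles than at the upper ones, while in UMIs it grew with the percentile. At the 10th percentile the values were 1597 and 3052.4 UMIs (log2 ratio -0.93), at the 25th 2206 and 4207 (-0.93), at the 75th 6409 and 10566 (-0.72) and at the 90th 10623.6 and 16315.2 (-0.62). Cells under 2000 UMIs were 151 of 757 in Cyp51-KO tumors, 19.9% (17.2 to 23.0%), and 20 of 657 in sg-Ctrl tumors, 3.04% (1.87 to 4.66%). At the other end, 86 Cyp51-KO cells (11.4%, 9.19 to 13.8%) and 185 sg-Ctrl cells (28.2%, 24.7 to 31.8%) had more than 10000 UMIs. With a minimum of 2000 UMIs in both groups the log2 ratio of the medians was -0.62. That cutoff acts on UMIs themselves and removed more Cyp51-KO cells, so the smaller gap partly follows from it. Without the barcodes found in both groups the log2 ratio was -0.89.

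The references moved the same way. The second functional cluster had medians of 14908 UMIs (13790 to 16801) and 20085.5 (17821 to 21547), a log2 ratio of -0.43 (-0.64 to -0.085), and the activated cluster 5015 (4550 to 5504) and 7865 (7251 to 8251), a log2 ratio of -0.65 (-0.86 to -0.40). The ratio of the first functional cluster was the 5th lowest of the 13 lymphocyte clusters, whose median was -0.85. Lower UMIs were therefore not particular to it. Whether sequencing depth, capture or the RNA content of the cells differed cannot be told apart here, where the depth per library was not analysed.

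**Figure D2:**
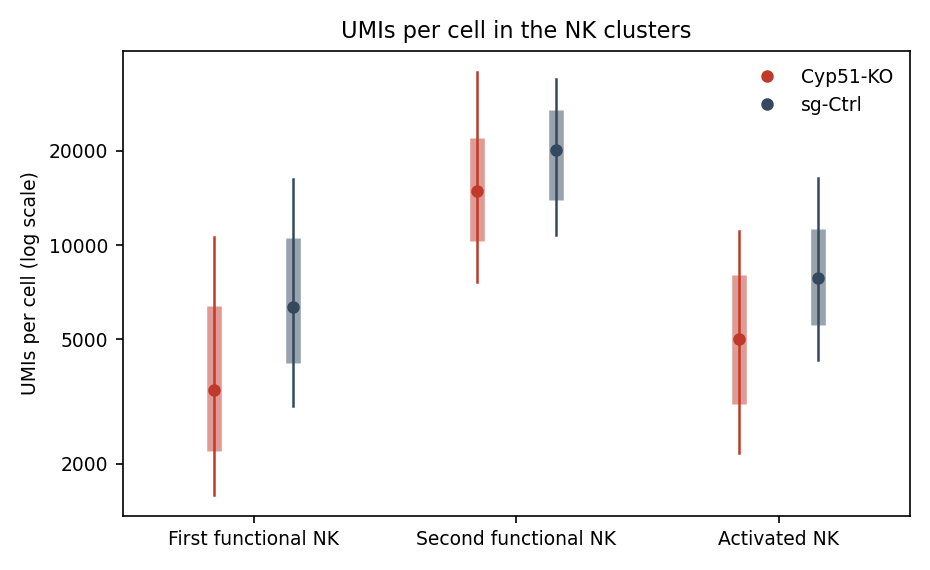
UMIs per cell (y axis, log scale) in the 3 NK clusters (x axis) of Cyp51-KO (red) and sg-Ctrl (dark blue) tumors. Points are medians, thick bars run from the 25th to the 75th and thin lines from the 10th to the 90th percentile of cells, and the first functional cluster lies lowest in both groups, with medians of 3437 and 6337 UMIs.

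Within each group the order of the NK clusters was the same. The second functional cluster held 4.34 times the median UMIs of the first in Cyp51-KO tumors and 3.17 times in sg-Ctrl tumors, and the activated cluster 1.46 and 1.24 times. On the log2 scale the first stood at -2.12 (-2.37 to -1.89) and -1.66 (-1.87 to -1.35) against the second functional cluster, and these bounds were barely apart. Against the activated cluster it stood at -0.55 (-0.76 to -0.29) and -0.31 (-0.48 to -0.057), with overlapping bounds. Over 10000 UMIs lay 76.6% and 91.7% of second functional NK cells, 16.6% and 32.2% of activated NK cells, and 11.4% and 28.2% of first functional NK cells.

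Because the first functional cluster held most of the NK cells with few UMIs, its share was also compared in 10 bins, the deciles of UMIs over the NK cells of both groups. In both groups its share was lower in the bins with many UMIs than in those with few, though in sg-Ctrl tumors it went from 56.1% in the 7th bin to 67.0% in the 8th. In the lowest bin it was 173 of 203 NK cells in Cyp51-KO tumors (85.2%, 79.6 to 89.8%) and 21 of 22 in sg-Ctrl tumors (95.5%, 77.2 to 99.9%). In the highest bin it was 14 of 88 (15.9%, 8.98 to 25.2%) and 51 of 137 (37.2%, 29.1 to 45.9%). Matching was incomplete there, with median UMIs of 25381 in Cyp51-KO and 22101 in sg-Ctrl NK cells. Since the share was lower where UMIs were many, the gap in this bin is not one at equal UMIs. The Cyp51-KO share was the lower in 10 of 10 bins, with intervals apart in 5, the nearest pair being 53.5% and 56.1% in the 7th bin. Averaged over bins the shares were 55.8% and 72.0%, a log2 ratio of -0.37 in place of -0.13.

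Averaged over the same bins, the second functional cluster held 18.6% of NK cells in Cyp51-KO against 8.31% in sg-Ctrl tumors and was the higher in Cyp51-KO in 10 of 10 bins. The activated cluster held 25.6% and 19.7% and was the higher in 7 of 10. The NK clusters together fill each bin, so these values are in part the complement of the first functional share.

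A bin of equal UMIs compares cells of a different rank in each group, since the Cyp51-KO cells lay lower over most of the range, though not at its very top. When the bins were instead the deciles of each group's own NK cells, the share was lower in Cyp51-KO tumors in 7 bins and higher in 3, with intervals apart in 0. The shares in the lowest of these deciles were 85.7% (78.4 to 91.3%) and 95 of 100 cells (88.7 to 98.4%), and in the highest 19.0% (12.6 to 27.0%) and 29.0% (20.4 to 38.9%). The mean over these deciles equals the unbinned share by construction and adds nothing to it. In the same deciles the second functional cluster was higher in Cyp51-KO tumors in 8 bins and lower in 1. The activated cluster was higher in 6 and lower in 4.

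**Figure D3:**
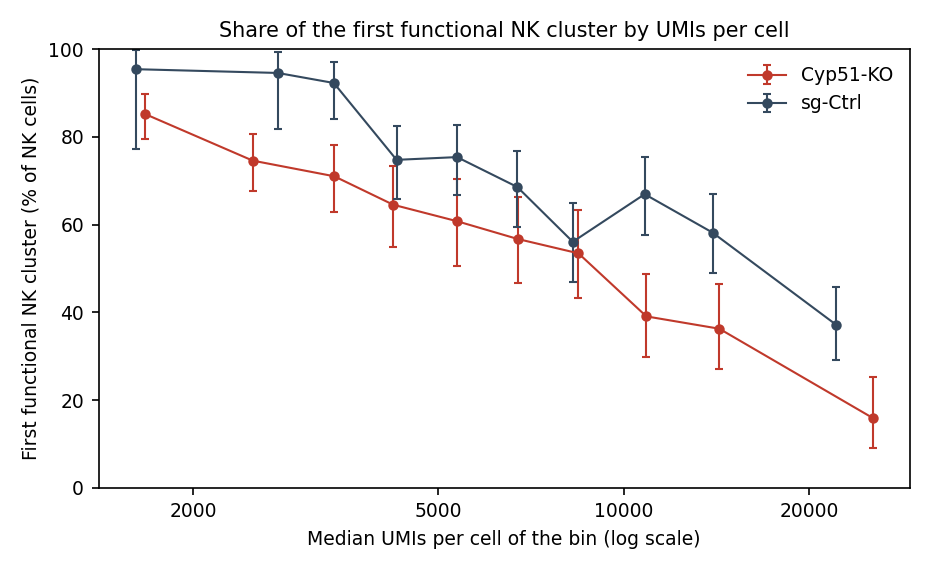
Share of the first functional cluster among NK cells (y axis, percent) in 10 UMI bins (deciles over the NK cells of both groups), plotted at each group's median UMIs in the bin (x axis, log scale). Bars are exact 95% binomial intervals, and the Cyp51-KO share (red) is below the sg-Ctrl share (dark blue) in 10 of 10 bins, ending at 15.9% and 37.2%. In that last bin the median UMIs were 25381 and 22101, so matching was incomplete.

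Fewer genes were detected per first functional NK cell of Cyp51-KO tumors, 1404 (1359 to 1466) against 2280 (2168 to 2380) at the median, a log2 ratio of -0.70 (-0.81 to -0.56). The 10th and 90th percentiles were 845.6 and 2855.6 genes in Cyp51-KO and 1439.2 and 3772.4 in sg-Ctrl cells. Of the Cyp51-KO cells, 605 (79.9%) lay under the sg-Ctrl median, and 50 sg-Ctrl cells (7.61%) under the Cyp51-KO median. The references had 3307 and 4104.5 genes (second functional) and 1808 and 2509 (activated).

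Genes and UMIs were nearly the same ordering of cells. Across the cells of each pool Spearman's rho was 0.98 in both groups, a description of cells from 1 sample each. Per 100 UMIs a Cyp51-KO cell showed more genes, 40.4 (39.6 to 41.7) against 35.5 (34.3 to 36.6). Within each pool genes rose less than UMIs, with slopes of log2 genes on log2 UMIs of 0.63 (Cyp51-KO) and 0.59 (sg-Ctrl). Genes per 100 UMIs were thus fewer in deeper cells. The source of the group difference in this measure was not tested. At matched UMIs the direction turned. In the deciles of UMIs of the first functional cluster, Cyp51-KO cells had the lower median of genes in 10 of 10 bins, with a mean log2 ratio of -0.11 whose outer bounds, -0.22 to 0.0031, included 0. Single bins ran from -0.20 to -0.0088.

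The difference was clearest in the middle of the range. Cells of the 4th bin, with medians of 3547 and 3566 UMIs, had 1409 genes (1380 to 1455) in Cyp51-KO against 1622 (1578 to 1664) in sg-Ctrl tumors. Those of the 7th bin, with 6609 and 6604 UMIs, had 2106 (2045 to 2154) and 2331 (2282 to 2392). Intervals were apart in 6 bins, the 3rd to the 7th and the 9th. In the lowest bins, with only 14 and 18 sg-Ctrl cells, the medians were 819 and 843.5 and then 1064 and 1070.5, and the intervals overlapped. Matching was incomplete in the highest bin, where the median UMIs were 15333.5 and 17722.5.

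The same held in the other lymphocytes. The mean log2 ratio of genes at matched UMIs was below 0 in 11 of the 11 lymphocyte clusters with enough cells, with a median of -0.11, and the first functional cluster was the 3rd lowest. The activated cluster stood at -0.13 (8 bins) and the second functional at -0.12 (10 bins).

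**Figure D4:**
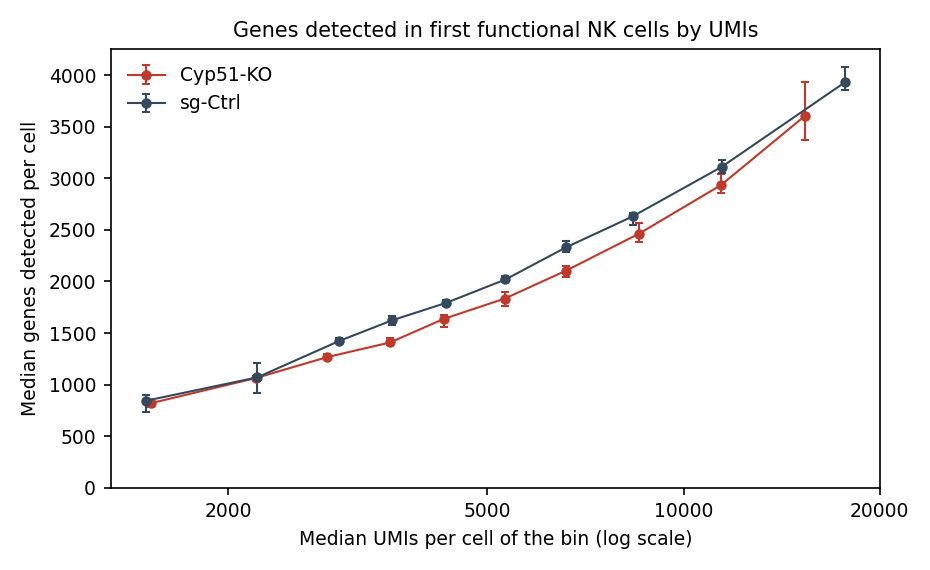
Median genes detected per first functional NK cell (y axis) in 10 UMI bins, plotted at each group's median UMIs in the bin (x axis, log scale), for Cyp51-KO (red) and sg-Ctrl (dark blue) tumors. Bars are exact 95% intervals of the median, and the Cyp51-KO median is the lower in 10 of 10 bins, at 1409 and 1622 genes in the 4th.

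Mitochondrial UMIs, whose percentage often rises in damaged cells and also follows the content of mitochondria, were few in both groups. The median was 0.693% (0.671 to 0.716%) in Cyp51-KO cells of the first functional cluster and 0.927% (0.886 to 0.963%) in its sg-Ctrl cells, a log2 ratio of -0.42 (-0.52 to -0.31). In molecules this was a median of 25 (23 to 27) and 61 (57 to 67) mitochondrial UMIs per cell. The Cyp51-KO cells were under the sg-Ctrl median in 576 of 757 cases (76.1%). Cells under 0.5% were 170 (22.5%, 19.5 to 25.6%) and 52 (7.91%, 5.97 to 10.2%), and cells over 2.5% were 2 and 7.

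Spearman's rho between this percentage and UMIs was 0.21 for Cyp51-KO cells and 0.042 for sg-Ctrl cells. From the lowest to the highest UMI bin the median went from 0.618% to 0.844% in Cyp51-KO cells and from 0.822% to 0.928% in sg-Ctrl cells. At matched UMIs the percentage was lower in Cyp51-KO cells in 10 of 10 bins, with intervals apart in 4 and a mean log2 ratio of -0.34 (range -0.44 to -0.14). In the 6th bin, for example, the medians were 0.701% (0.633 to 0.782%) and 0.946% (0.807 to 1.04%). The mitochondrial difference was thus nearly as large at equal UMIs as without matching.

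The first functional cluster had the 3rd lowest mitochondrial percentage of the 13 lymphocyte clusters in Cyp51-KO and the 2nd lowest in sg-Ctrl tumors. Activated NK cells were higher, at 0.953% (0.910 to 1.01%) and 1.26% (1.197 to 1.34%). Against them the first functional cluster stood at a log2 ratio of -0.46 in Cyp51-KO against -0.45 in sg-Ctrl tumors, with overlapping bounds. Second functional NK cells were at 0.792% (0.757 to 0.845%) and 0.932% (0.874 to 1.02%). Their interval was apart from that of the first functional cluster in Cyp51-KO tumors (log2 ratio -0.19, -0.33 to -0.080) and overlapped it in sg-Ctrl tumors (-0.0077, -0.20 to 0.14). The bounds of these log2 ratios overlapped, which neither shows nor excludes a difference between the groups. At matched UMIs the mitochondrial ratio was below 0 in 11 of the 11 lymphocyte clusters with enough cells, with a median of -0.35, and the first functional cluster was the 7th lowest.

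**Figure D5:**
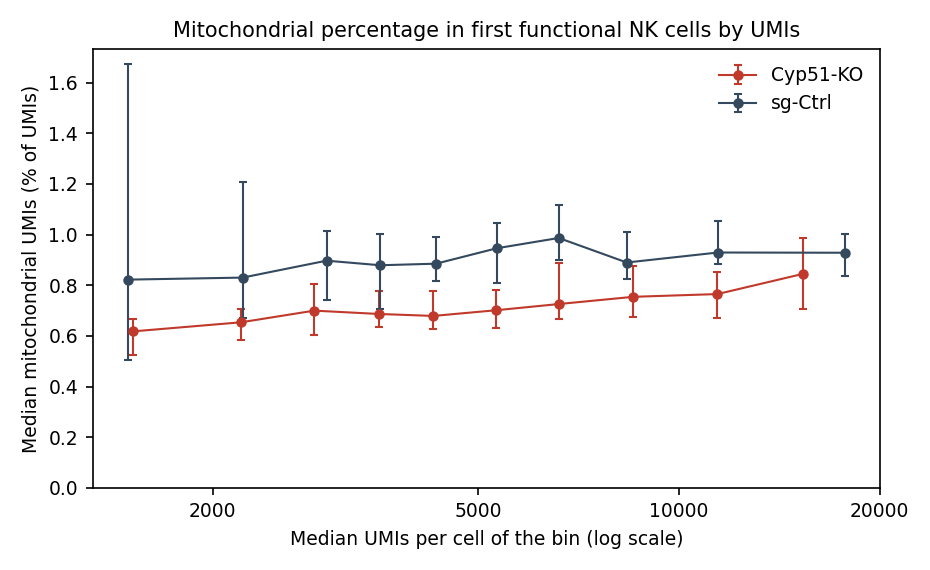
Median percentage of mitochondrial UMIs per first functional NK cell (y axis) in 10 UMI bins, plotted at each group's median UMIs in the bin (x axis, log scale), for Cyp51-KO (red) and sg-Ctrl (dark blue) tumors. Bars are exact 95% intervals of the median, and the Cyp51-KO median is the lower in 10 of 10 bins, at 0.701% and 0.946% in the 6th.

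Normalization by the authors removed most of the difference in median UMIs and little of that in median genes. After SCTransform, which fits each gene's counts to the depth of the cells and returns corrected counts, the median total per first functional NK cell was 6454 (6417 to 6484) in Cyp51-KO against 6737 (6633 to 7014) in the sg-Ctrl pool, with log2 ratio -0.062 (-0.13 to -0.033). Genes with a corrected count were 1458 (1414 to 1492) and 2269 (2161 to 2343), a log2 ratio of -0.64 (-0.73 to -0.53). Away from the median more of the gene difference was removed, with the log2 ratio going from -0.77 to -0.34 at the 10th percentile and from -0.40 to -0.21 at the 90th. Any share of cells in which a gene is detected, in this cluster, was therefore taken from cells with unequal numbers of detected genes in the 2 groups.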

How the data were processed

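Single-cell libraries of Cyp51-KO and sg-Ctrl CT26 tumors were aligned to GRCm38 with Cell Ranger 7.0 and analysed by the authors with Seurat 4.2.0 in R 4.2.0, per the submitters' processing notes. The methods of the study state that cells were filtered on genes, UMIs and mitochondrial UMIs, merged, normalized by SCTransform with mitochondrial percentage regressed out, and clustered. The lowest value kept was 500 UMIs and the highest 4.98% mitochondrial UMIs. The deposited table gives raw UMI counts per cell, made by the authors and not normalized, the genes detected, the percent of mitochondrial UMIs, and SCTransform-corrected totals, which the authors computed and which were treated as a score. The handling of doublets was not given in the sources used here. No doublet caller was run.

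Cells were grouped by the prefix of their name, which matches the sample titles and the group column. The cluster's members were the cells annotated Functional_NK_1. These members, the marker lists and the tests were chosen with earlier results of these data known. Genes were named only as markers, without values. With 1 sample per group no test was made. Shares were given with Clopper-Pearson and medians with order-statistic intervals (95%), and log2 ratios with the outer bounds of both. UMI matching used 10 bins over both groups, and at least 5 cells per group and bin for other clusters. Alternatives set at the start were other denominators, a stricter cell filter (a UMI minimum of 1000 and a mitochondrial maximum of 2.5%), removal of the top 5% of cells by UMIs, means of log values (offset 0.1 for the mitochondrial percent), corrected totals, 5 bins, and bins with at least 20 cells of each group. The interval code and the matching of genes were tested on simulated data, with the same relation of genes to UMIs in both groups. Mitochondrial matching and the NK share bins were not simulated. Python 3.11.15, pandas 2.3.3, NumPy 2.4.6, SciPy 1.17.1 and Matplotlib 3.10.9 were used.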

Additional observations from a re-analysis of the deposited data

How the results depend on the processing

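Of 30 alternative values, 0 turned the direction of a value whose bounds exclude 0, and 5 left the bounds of the value as reported, the cause of which was not tested. The share among NK cells (log2 ratio -0.13) was -0.34 among immune cells other than T cells and -0.37 at matched UMIs. The share among lymphocytes (0.0064) was -0.34 among all cells. The UMIs per cell (log2 ratio -0.88) gave -0.062 after SCTransform, which rescales cells toward a common depth by construction. With at least 2000 UMIs they gave -0.62, where the cutoff acts on UMIs themselves and partly narrows the gap by construction. The other 25 stayed within the bounds, among them the share of NK cells with at least 2000 UMIs (-0.22). That minimum removed unequal parts of the cluster between the groups. Shares after removal of the top 5% of cells are also among the 25. They could hardly move, since every cluster lost the same part. Matched UMIs, the minimum of 2000 UMIs and leaving out barcodes of both groups were chosen after seeing the data. No paired analysis was possible because cells are tied to a group and not to a library, although the titles share digits between groups, and for the same reason leaving out each library was not run. The limit on every value is 1 set of cells per group: cell numbers set the precision printed, and differences between tumors, sorts and libraries are not covered.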
